A study of Neurospora crassa with 6 samples.

Results

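Heat shock protein genes were examined in mycelium of the filamentous fungus Neurospora crassa. They were chosen by name, as the rows of the deposited count table whose gene identifier begins with hsp and a number, or is grp78. The rule found 13 of the 9757 genes: hsp20 family, hsp30, hsp30-like protein, hsp60, hsp70-1, hsp70-2, hsp70-5, hsp78, hsp80, hsp88, hsp90a, hsp98 and grp78. Messenger RNA was sequenced from a cac-1 knockout, called the single knockout here, and from a cac-1 suz-12 knockout, called the double knockout, with 3 libraries each. The mycelium came from overnight culture in Vogel's medium (1.5% sucrose), and no heat treatment is named in the labels. Both strains lack cac-1, a subunit of the chromatin assembly factor that deposits histones during replication, so by the labels they differ in the knockout of suz-12, a subunit of the Polycomb complex that methylates histone H3. The counts also differed at the mating-type locus, as given below, so suz-12 was not the only difference. Wild type was not analysed here. The labels do not say whether the 3 libraries of a strain came from separate cultures. The p-values thus set the strain difference against the spread between these libraries, which may not include the spread between cultures.

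Heat shock proteins are molecular chaperones. They bind unfolded or newly made proteins and help them fold, and in fungi many of their genes are transcribed at a basal level during growth and strongly induced by heat or by damage to proteins. They are grouped by size and by compartment. Hsp70 proteins fold client proteins with co-chaperones such as the Hsp110 family, Hsp90 matures signalling proteins, Hsp104 (ClpB) proteins pull aggregates apart, small heat shock proteins hold unfolded proteins, and chaperonins fold proteins in mitochondria. Raised levels of these transcripts are commonly used as a sign of cell stress, which is the question put to the 2 strains.

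The members did not move in one direction. Of the 13 genes, 5 were lower in the double knockout (hsp60, hsp80, hsp70-1, grp78 and hsp70-2), 2 were higher (hsp20 family and hsp88), and 6 did not pass the test (edgeR adjusted p of 0.05 over all genes tested). Over all 9148 genes tested, 28.1% passed, 16.1% higher and 11.9% lower. Among the 4996 of them at or above the lowest average level of a member, 31.8% passed, 17.3% higher and 14.5% lower. All 13 members passed the filter on low counts. For 6 members the strains had no overlap between their libraries (5 lower and 1 higher), against 42.3% of all genes tested. In the main fit no called member changed by 2-fold or more. With a call, 11.3% of all genes tested reached that size (8.46% higher and 2.89% lower). Some alternative fits had called members beyond it, among them the fit without single-knockout replicate 3. There the log2 fold change was -1.06 for hsp60, -1.13 for hsp80 and 1.08 for the hsp20 family gene. In RNA from whole mycelium, fewer cells with a transcript and less of it per cell cannot be told apart. The median log2 fold change of the members was -0.47, against -0.00089 for all genes tested. The median of the absolute change was 0.52 for the members and 0.34 for all genes tested. The number of members called was 4 without single-knockout replicate 1, 4 without single-knockout replicate 2, 4 without double-knockout replicate 1 and 3 without double-knockout replicate 3. Scaled to library totals without TMM factors, which shifted the median gene to -0.20, 1 member was higher and 7 lower, and the share of higher calls among all calls was 35.8% against 57.5%.

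**Figure D1:**
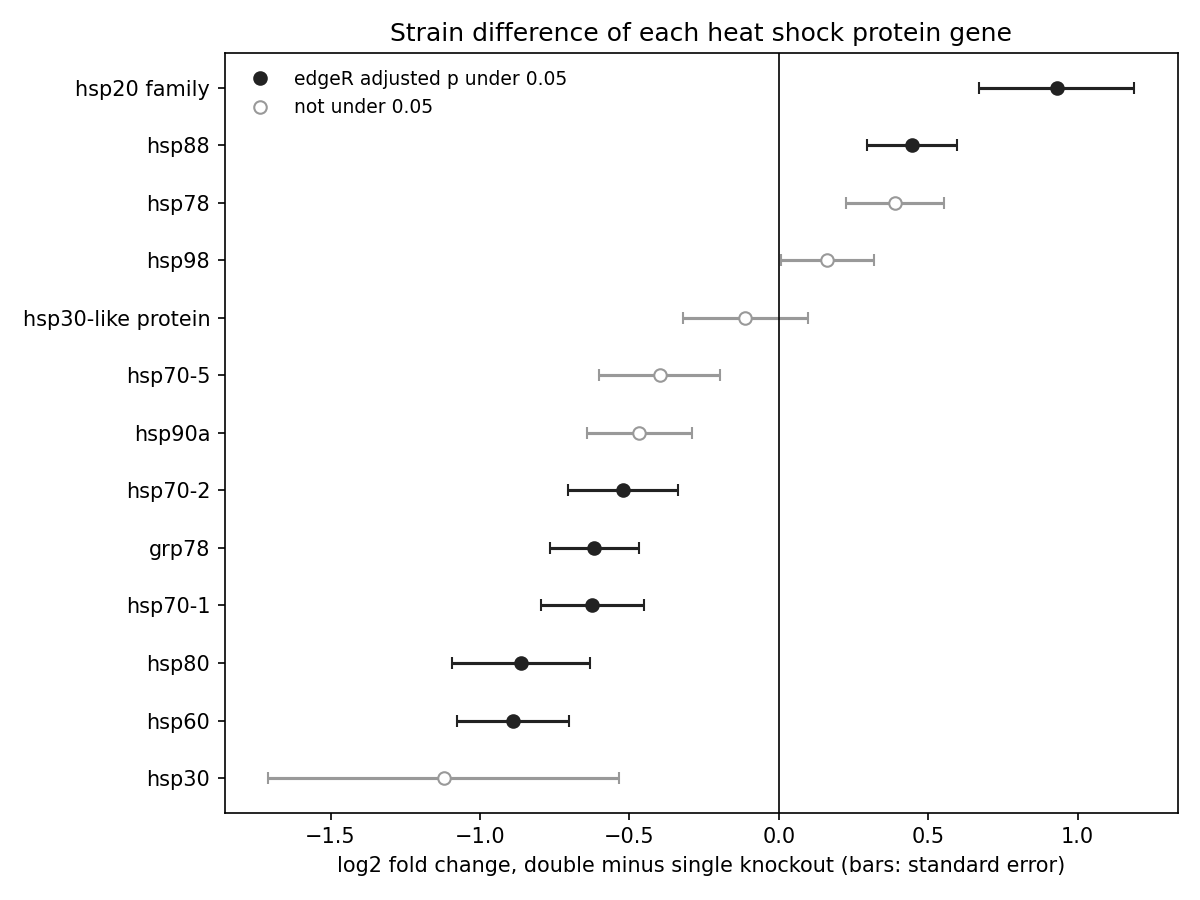
Log2 fold change of each heat shock protein gene, double minus single knockout (x axis, log2 units). Points are edgeR estimates, bars are standard errors, and filled points have an adjusted p under 0.05. Called genes lie from -0.89 for hsp60 to 0.93 for the hsp20 family gene.

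The libraries held 7989915 to 28327383 counts, with single-knockout replicate 1 the shallowest. No library had a count on cac-1. The locus NCU05460, taken as suz-12 from general knowledge since the tables used here do not give that name, fell from 8.39 ± 0.918 to 2.68 ± 0.4998 CPM (counts scaled to 1000000 per library; SD, n = 3 per strain), so reads remained there in the double knockout (edgeR adjusted p = 8.20e-05). The mating-type gene matA-1 had 0 counts in every single-knockout library and 1000 to 1387 in the double knockout, so the strains differed at that locus too. Library numbers run consecutively within each strain, and a library batch, if there was one, cannot be told apart from the strain. Markers of hyphae and of conidiating tissue were measured beside the members. Of the hyphal markers, hex-1 (Woronin body protein) rose by 0.64 and so (hyphal fusion) fell by 0.67 on the log2 scale (edgeR adjusted p = 0.0065 and 0.0130). All 6 conidiation markers had counts, with con-13 lowest at 0.234 to 1.20 CPM. Their summed level was 196 to 360 CPM in the single and 155 to 192 CPM in the double knockout, with con-8 lower (log2 fold change -1.80) and con-6 higher (1.71) in the double knockout (edgeR adjusted p = 2.3e-06 and 3.7e-06). The sum mostly followed con-8, which held 128 to 227 CPM in the single and 47.1 to 53.6 CPM in the double knockout. The remaining markers were not called. Of these, fl was higher (log2 fold change 0.37), and con-10, con-13 and eas were lower (-0.98, -0.54 and -0.53). The sum thus does not give a shared direction of the conidiation markers. The part of these shifts in the results below was not tested.

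The Hsp70 genes hsp70-1 and hsp70-2 were among the most abundant members, and both fell. The gene hsp70-1 (NCU09602, linkage group II, 80189 to 82473, minus strand, 5 counted intervals) encodes the heat-inducible Hsp70 that the annotation also calls hsps-1. It stood at 581, 746 and 540.02 CPM in single-knockout replicates 1, 2 and 3 and at 450.4, 430.2 and 331 CPM in the double knockout. Every double-knockout library lay below every single-knockout library, an order that 19.8% of all genes tested showed. The mean fell from 622 ± 109 to 404 ± 64.0 CPM (SD, n = 3 per strain), with a log2 fold change of -0.62 (SE 0.17; adjusted p = 0.0131 by edgeR). Its adjusted p ran from 0.0026 to 0.0697 over 19 alternatives and rose above 0.05 when single-knockout replicate 2 (0.0697) or the double-knockout library 3 (0.0614) was left out.

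The second Hsp70 gene of the numbered series, hsp70-2 (NCU02075, linkage group I, 1450982 to 1453322, plus strand, 5 counted intervals), had 462, 645 and 461 CPM in the single and 401, 407 and 285 CPM in the double knockout. The strains again did not overlap, with single-knockout replicate 2 the highest library for this gene as for hsp70-1. The mean fell from 523 ± 106 to 364 ± 68.8 CPM (SD, n = 3 per strain), a log2 fold change of -0.52 (SE 0.18; adjusted p = 0.0431 by edgeR). This call was close to the threshold. Its adjusted p ran from 0.0113 to 0.209 over the alternatives, and rose above 0.05 when any 1 of 4 libraries was left out. The fold change grew to -0.60 without single-knockout replicate 1 (adjusted p = 0.0580) and to -0.59 without double-knockout replicate 1 (0.0646). It shrank to -0.34 without single-knockout replicate 2 (0.209) and to -0.37 without double-knockout replicate 3 (0.174). Reads shared between Hsp70 genes of similar sequence were not examined, so how counting split them is uncertain.

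The Hsp70 co-chaperone gene hsp88 moved the other way. It encodes the Neurospora member of the Hsp110 family, which exchanges nucleotide on Hsp70 (NCU05269, linkage group IV, 5521779 to 5524355, minus strand, 5 counted intervals). Its libraries held 89.4, 106 and 91.8 CPM in the single and 143, 128 and 120.1 CPM in the double knockout. All 3 double-knockout libraries were above all 3 single-knockout libraries, which 22.4% of all genes tested showed. The mean rose from 95.8 ± 9.07 to 131 ± 11.7 CPM (SD, n = 3 per strain), with a log2 fold change of 0.45 (SE 0.15; adjusted p = 0.0349 by edgeR). The adjusted p was 0.134 without single-knockout replicate 1, 0.105 without single-knockout replicate 3, 0.152 without double-knockout replicate 1, 0.306 on library totals and 0.0689 with upper-quartile scaling, within a range of 0.0239 to 0.306 over the alternatives.

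**Figure D2:**
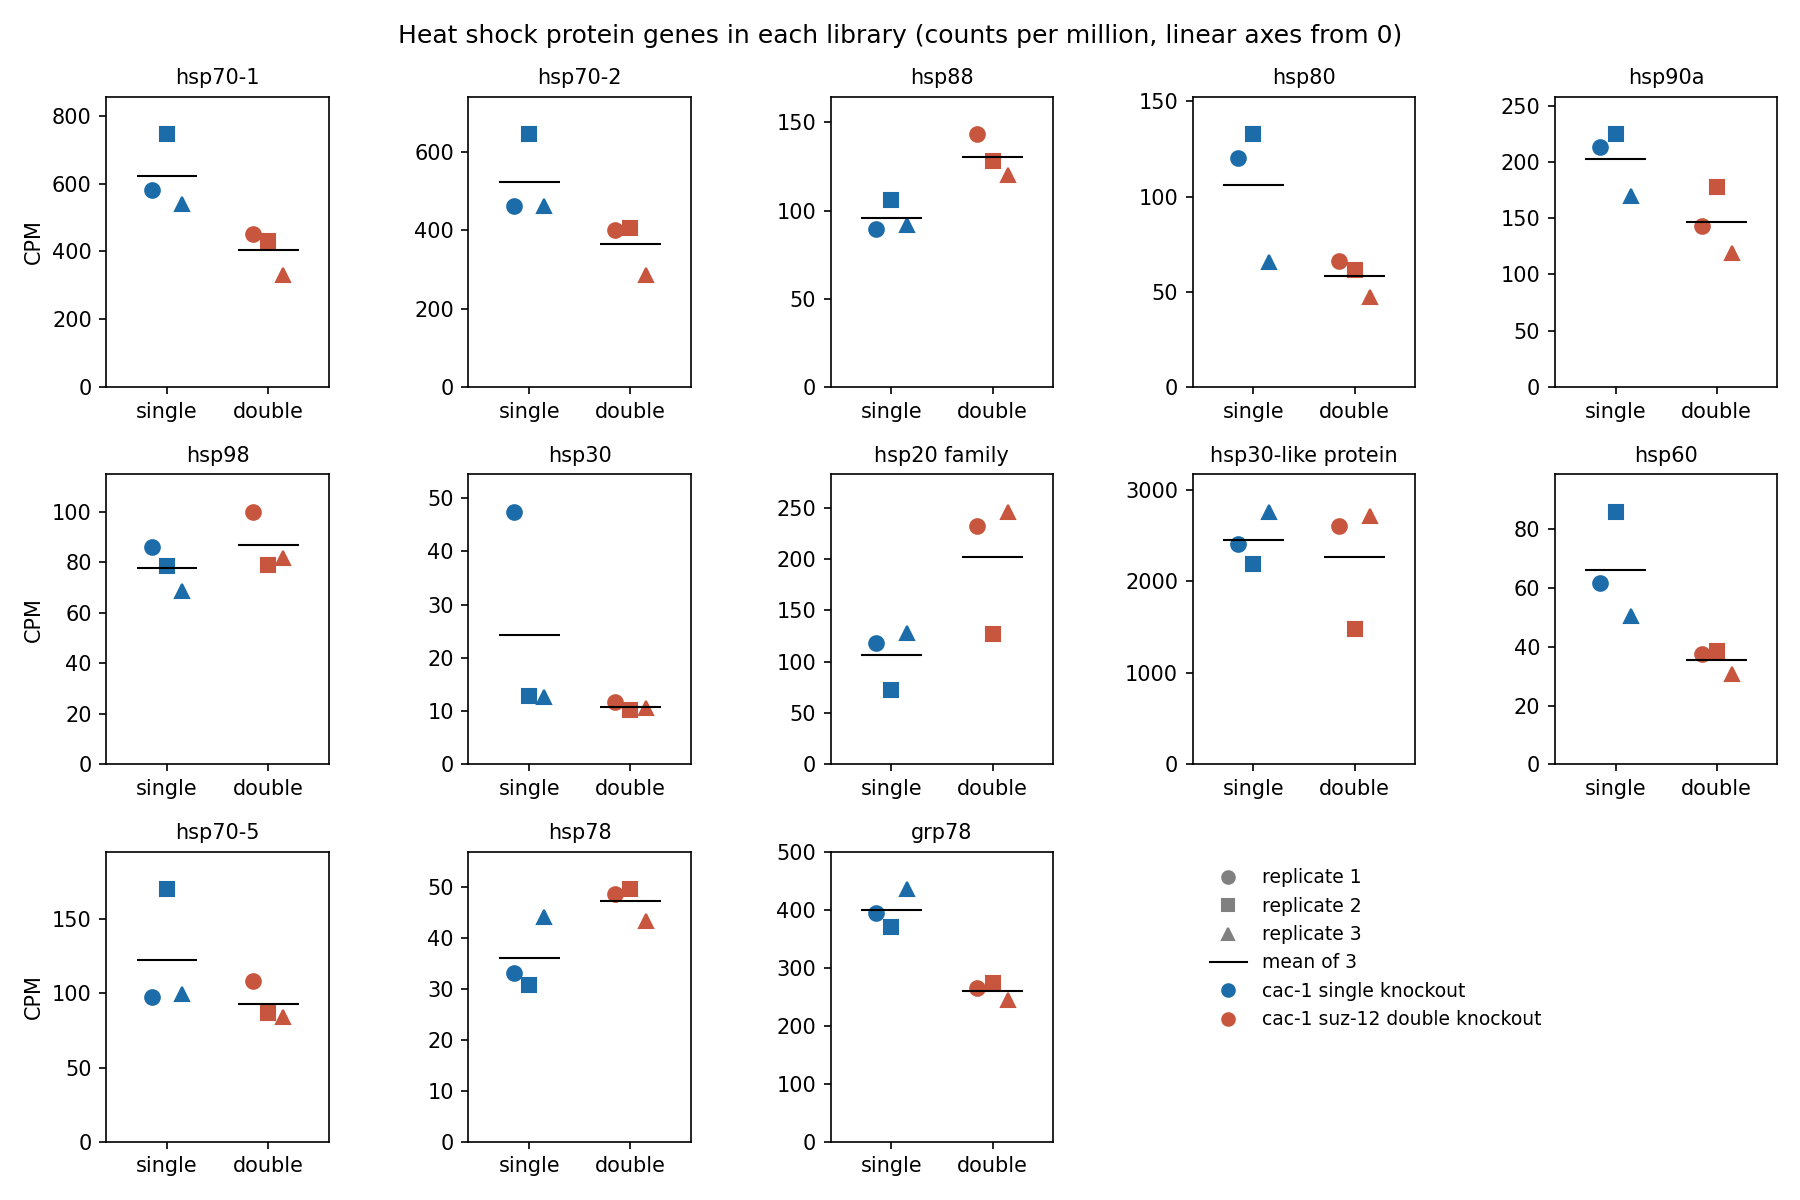
CPM (y axes, linear from 0) of the 13 heat shock protein genes in each library. Blue points are the single and red points the double knockout, symbols mark replicates 1 to 3, and black lines are means of 3 libraries. For hsp70-1, hsp70-2, hsp60, grp78 and hsp30 all red points lie below all blue ones, and for hsp88 all lie above. For hsp30 the blue mean is set by 1 library.

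The Hsp90 gene hsp80 (NCU04142, also called hsp83 in the annotation, linkage group V, 4974965 to 4977147, plus strand, 2 counted intervals) had 120.3, 133 and 65.7 CPM in the single knockout and 66.2, 61.4 and 47.1 CPM in the double knockout. Single-knockout replicate 3 lay within the range of the double knockout, so the strains overlapped in that library. The mean fell from 106 ± 35.6 to 58.3 ± 9.94 CPM (SD, n = 3 per strain), to 54.9% of the single-knockout mean. Its log2 fold change was -0.86 (SE 0.23; adjusted p = 0.0131 by edgeR). The adjusted p was 0.0571 without single-knockout replicate 1, 0.0544 without single-knockout replicate 2 and 0.0530 without double-knockout replicate 3, and ran from 6.3e-05 to 0.0571 over the alternatives.

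The gene named hsp90a (NCU01792, linkage group II, 2401005 to 2402052, minus strand, 4 counted intervals) is short for an Hsp90, with a coding length of 651 bp against 2118 bp for hsp80. It had 214, 225 and 169.9 CPM in the single and 143, 178 and 119 CPM in the double knockout. Double-knockout replicate 2 was above single-knockout replicate 3, and the log2 fold change of -0.47 (95% interval -0.84 to -0.096, edgeR adjusted p = 0.0567) did not pass the test. It passed without single-knockout replicate 3 (adjusted p = 0.0249), without double-knockout replicate 2 (0.0153), on library totals (0.0205), with upper-quartile scaling (0.0282) and with DESeq2 (0.0380), and the adjusted p ran from 0.0148 to 0.216 over the alternatives.

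The disaggregase genes hsp98 and hsp78 were not called. The gene hsp98 encodes the Hsp104 (ClpB) protein that extracts proteins from aggregates (NCU00104, linkage group III, 2635338 to 2638121, minus strand, 1 counted interval). It stood at 85.9, 78.7 and 68.5 CPM in the single and 99.9, 78.98 and 81.5 CPM in the double knockout, with overlapping ranges. Its log2 fold change was 0.16 (95% interval -0.17 to 0.49, edgeR adjusted p = 0.474), and the sign turned on library totals, where it was -0.044. The gene hsp78, whose yeast namesake is the mitochondrial ClpB protein (NCU02630, linkage group I, 2990412 to 2992844, minus strand, 1 counted interval), had 33.2, 30.7 and 44.2 CPM in the single and 48.7, 49.5 and 43.3 CPM in the double knockout. Only single-knockout replicate 3 reached the double-knockout range. The log2 fold change of hsp78 was 0.39 (95% interval 0.040 to 0.74, edgeR adjusted p = 0.0899). Without single-knockout replicate 3 it was 0.55 and passed the test (adjusted p = 0.0234), within a range of 0.0234 to 0.431 over the alternatives.

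Levels of the Hsp70 partners were also set against hsp70-1 within each library, as ratios of RPKM (CPM per kilobase of counted length), where the scaling of libraries cancels. The ratio of hsp88 to hsp70-1 was 0.141, 0.130 and 0.155 in the single and 0.290, 0.272 and 0.332 in the double knockout. It was 2.10 times as high in the double knockout, and the strains did not overlap. The ratio of hsp98 to hsp70-1 was 0.103, 0.0736 and 0.0885 against 0.155, 0.128 and 0.172, 1.71 times as high, also without overlap. In contrast the ratio of hsp70-1 to hsp70-2 was 1.08 ± 0.0502 in the single and 1.01 ± 0.0477 in the double knockout (SD, n = 3 per strain), with overlapping ranges. The exact two-sided permutation p was 0.1 for hsp88 and for hsp98, the smallest that 3 libraries against 3 allow, and 0.2 for hsp70-2 (Benjamini-Hochberg adjusted over 5 ratios 0.125, 0.125 and 0.2). The ratios were chosen with these values in view, so a permutation p of 0.1 only restates the lack of overlap. The ratios of hsp88 and hsp98 share hsp70-1, which itself fell (log2 fold change -0.62). The gene hsp98 was not called (0.16, edgeR adjusted p = 0.474), so the rise of its ratio was mostly the fall of hsp70-1.

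**Figure D3:**
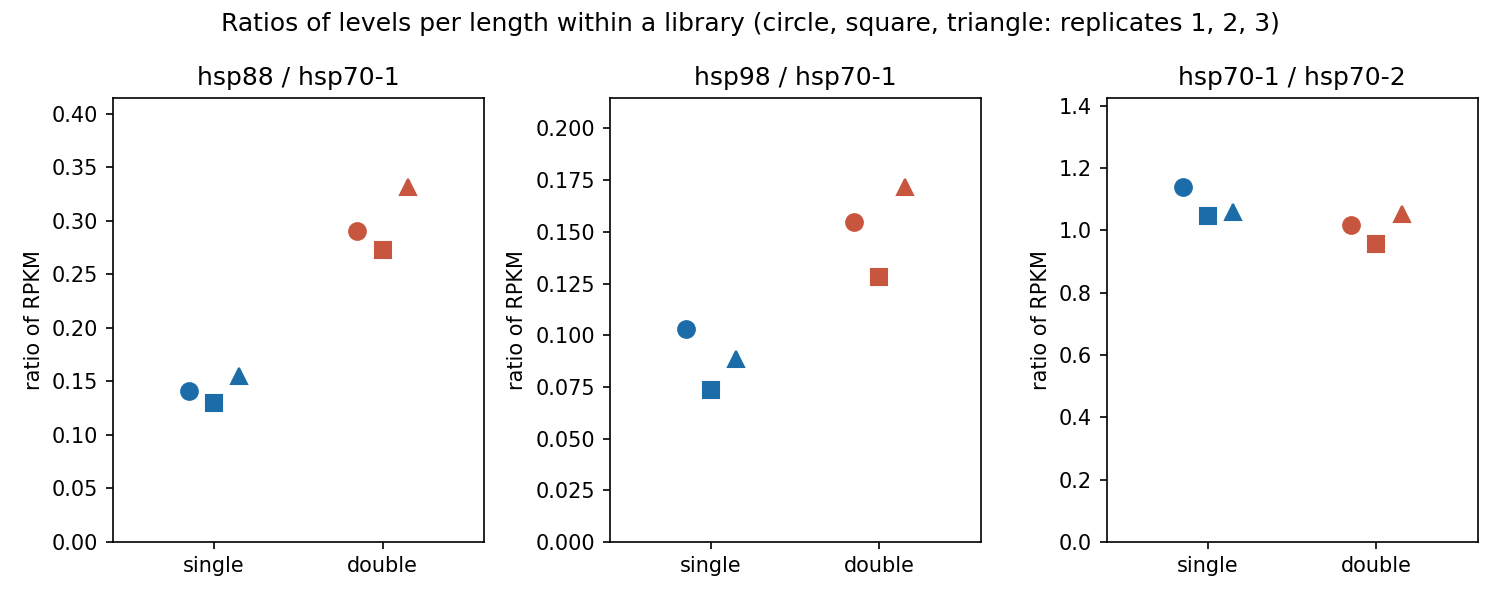
Ratios of RPKM within each library (y axes, linear from 0, no unit) for hsp88 to hsp70-1, hsp98 to hsp70-1 and hsp70-1 to hsp70-2. Symbols mark replicates 1 to 3 of the single (blue) and double (red) knockout. The first pair of ratios is higher in every double-knockout library, and the last overlaps.

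In mitochondria, hsp60 encodes the chaperonin that folds imported proteins (NCU01589, linkage group II, 3013051 to 3014933, plus strand, 3 counted intervals). It had the largest fall among the called members. Its libraries stood at 61.6, 85.8 and 50.5 CPM in the single and 37.7, 38.6 and 30.6 CPM in the double knockout, so that the highest double-knockout library was below the lowest single-knockout library. The mean fell from 66.0 ± 18.1 to 35.6 ± 4.38 CPM (SD, n = 3 per strain), to 54.0% of the single-knockout mean, with a log2 fold change of -0.89 (SE 0.19; adjusted p = 0.00206 by edgeR). The call held in all 19 alternatives, with adjusted p-values from 1.2e-04 to 0.0148.

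The gene hsp70-5 (NCU08693, linkage group IV, 4072324 to 4074561, plus strand, 3 counted intervals), a further Hsp70 gene, stood at 97.8, 169.95 and 99.9 CPM in the single and 108, 86.9 and 84.2 CPM in the double knockout. Apart from single-knockout replicate 2 the libraries of both strains lay close together. Its log2 fold change was -0.40 (95% interval -0.83 to 0.036, edgeR adjusted p = 0.161), and -0.087 without that library. On library totals it passed the test (adjusted p = 0.0373), within a range of 0.0373 to 0.758 over the alternatives. Single-knockout replicate 2 was the highest library for hsp70-1, hsp70-2, hsp70-5, hsp60, hsp80 and hsp90a alike, and the lowest single-knockout library for grp78, hsp78 and the hsp20 family and hsp30-like genes.

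In the endoplasmic reticulum, grp78 (BiP) encodes the Hsp70 that binds secreted proteins as they enter, and its transcript is a usual marker of the unfolded protein response. The gene (NCU03982, linkage group VI, 2330118 to 2332531, plus strand, 6 counted intervals) had 395, 371 and 435 CPM in the single and 265, 274 and 244 CPM in the double knockout. The coefficient of variation in the double knockout, 5.87%, was the lowest of the 13 members, and every double-knockout library lay below every single-knockout library. The mean fell from 400.05 ± 32.5 to 261 ± 15.3 CPM (SD, n = 3 per strain), to 65.2% of the single-knockout mean. Its log2 fold change was -0.62 (SE 0.15; adjusted p = 0.00523 by edgeR). The call held in all 19 alternatives, with log2 fold changes from -0.81 to -0.56.

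The small heat shock genes varied between libraries of the same strain. The gene listed as hsp20 family (linkage group VII, 1178532 to 1179179, plus strand, 1 counted interval, placed at NCU09420 by its position) had 118, 72.6 and 128 CPM in the single and 233, 127 and 246 CPM in the double knockout. Double-knockout replicate 2 lay in the single-knockout range while the others were higher. The mean rose from 106 ± 29.4 to 202 ± 64.9 CPM (SD, n = 3 per strain), a log2 fold change of 0.93 (SE 0.26; adjusted p = 0.0187 by edgeR), the largest rise of any member. The adjusted p was 0.0735 without double-knockout replicate 1 and 0.0737 without double-knockout replicate 3, within a range of 3.4e-05 to 0.0737 over the alternatives. In the annotation the neighbouring gene NCU09419, on the minus strand, extends over this gene. Whether counting used strand is not stated, so reads of these genes may not be told apart. NCU09419 itself had a log2 fold change of 0.50 (edgeR adjusted p = 0.185).

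The gene hsp30 encodes a small heat shock protein that is nearly silent in unstressed Neurospora and strongly induced by heat (NCU09364, linkage group I, 3587128 to 3587814, plus strand, 1 counted interval). It had 405, 360 and 275 counts in the single and 264, 296 and 179 counts in the double knockout. Scaled by depth these were 47.4, 12.8 and 12.7 CPM and 11.7, 10.1 and 10.6 CPM. Per length, hsp30 stood at 18.5 to 69.1 RPKM in the single and 14.8 to 17.0 RPKM in the double knockout. It was thus not silent here, and whether this level reflects stress was not tested. Single-knockout replicate 1, the shallowest library, thus stood 3.72 times as high as the lowest library of its own group, while the other 5 libraries lay within 10.1 to 12.8 CPM. Among the other 12 members, the same library was the highest of its group for hsp98 and not for the rest. The log2 fold change was -1.12 (SE 0.59; 95% interval -2.60 to 0.36; adjusted p = 0.227 by edgeR) and -0.24 without that library (adjusted p = 0.429). Although all double-knockout libraries were below all single-knockout libraries, hsp30 was not called. Without robust estimation it was (adjusted p = 0.0421), and the adjusted p ranged from 0.0421 to 0.429 among the alternatives.

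The most abundant member by far was the gene listed as hsp30-like protein (linkage group V, 6162670 to 6163509, minus strand, 1 counted interval, placed at NCU07232 by its position). It had 2409, 2189 and 2759.5 CPM in the single and 2609, 1485 and 2714 CPM in the double knockout. Double-knockout replicate 2 was low, as it was for the hsp20 family gene, and the other libraries were alike in both strains. Its log2 fold change was -0.11 (95% interval -0.56 to 0.33, edgeR adjusted p = 0.736), and 0.12 without double-knockout replicate 2. The table's name for this gene does not say which family it belongs to, and it had more counts than the other 12 members together in every library except single-knockout replicate 2 and double-knockout replicate 2.

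Levels per length were ordered within each strain by RPKM. In the single knockout hsp30-like protein stood at 2920 ± 343 RPKM (SD, n = 3), rank 86 of the genes tested by its mean over all libraries. It was followed by hsp70-1 (321 ± 56.1), hsp90a (311 ± 44.4) and hsp70-2 (297 ± 60.3), whose libraries overlapped, and then by grp78 (201 ± 16.4) and the hsp20 family gene (164 ± 45.4), which overlapped each other. A lower tier from hsp70-5 (61.1 ± 20.5) through hsp80, hsp88, hsp60 and hsp30 to hsp98 (27.9 ± 3.13) formed a chain in which each gene's libraries overlapped those of the next, and hsp78 was last at 14.8 ± 2.94 RPKM. In the double knockout the hsp20 family gene stood second, at 312 ± 100.2 RPKM, though its libraries overlapped those of hsp90a (225 ± 45.8). The gene hsp88 (61.4 ± 5.50 RPKM) stood clear above hsp70-5 (46.4 ± 6.55), and hsp30 was last at 15.7 ± 1.16 RPKM.

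**Figure D4:**
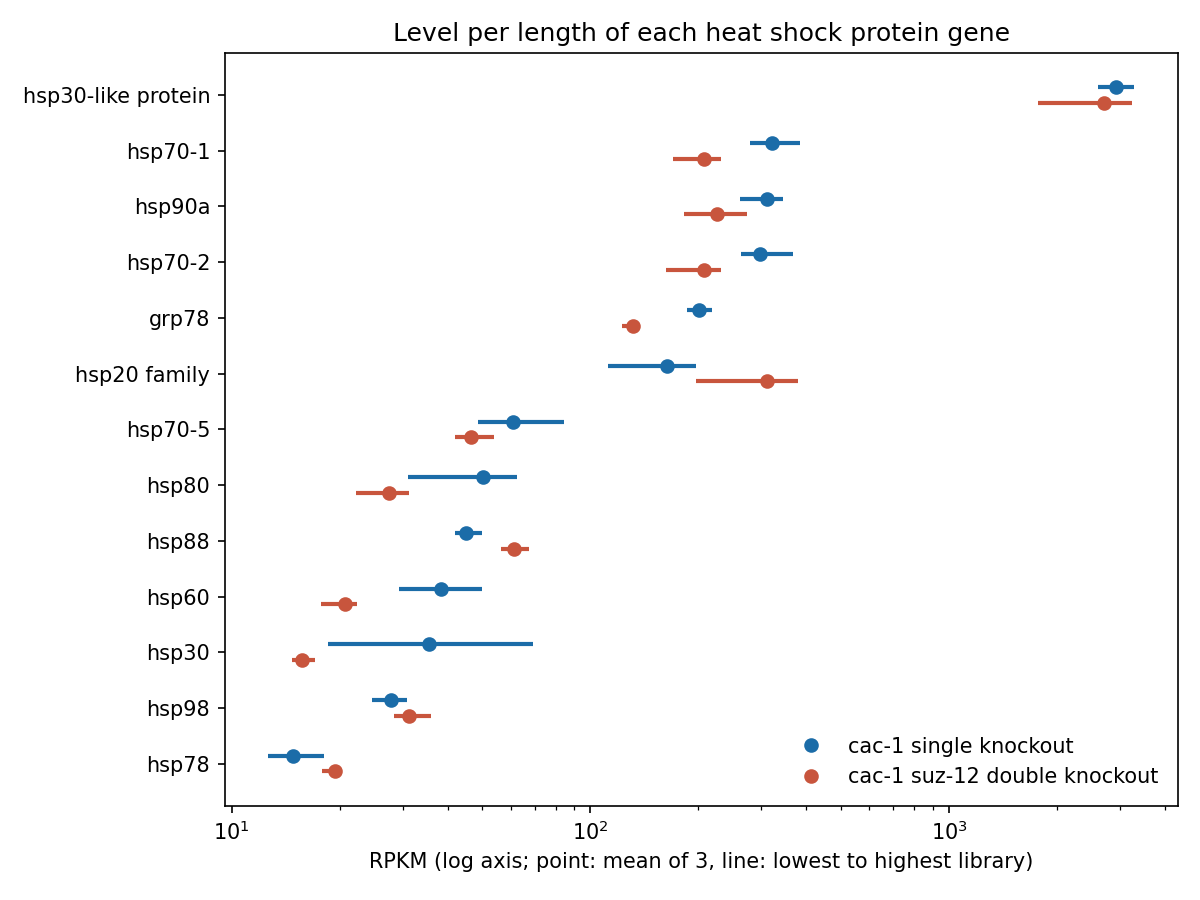
RPKM of each heat shock protein gene (x axis, log scale) in the single (blue) and double (red) knockout. Points are means of 3 libraries and lines run from the lowest to the highest library. The hsp30-like gene lies near 2920 RPKM, far to the right of all other members.

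Without hsp30-like protein, the summed level of the members was 2167 to 2675 CPM in the single and 1642 to 2007 CPM in the double knockout, with no overlap. With it, the sum was 4713 to 4927 CPM against 3355 to 4616 CPM, also with no overlap. The sum without that gene was weighted towards members called lower. Together hsp70-1 and hsp70-2 held 1001 to 1391 CPM in the single and 616 to 851 CPM in the double knockout. The gene grp78 held 371 to 435 CPM in the single and 244 to 274 CPM in the double knockout. The sums thus do not show a fall shared by all members. The median coefficient of variation between libraries was 19.9% for the members and 15.1% for all genes tested in the single knockout, and 14.1% and 14.3% in the double knockout.

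Genes named as heat shock factors were looked at next. As a class, such factors bind the promoters of heat shock genes and switch them on. Whether both hsf-1 and hsf-2 do so was not tested. The gene hsf-1 had 15.2, 10.3 and 17.5 CPM in the single and 10.7, 12.9 and 17.3 CPM in the double knockout. Its log2 fold change was -0.069 (95% interval -0.55 to 0.41, edgeR adjusted p = 0.853). The gene hsf-2 had 12.1, 7.93 and 9.36 CPM against 8.06, 8.91 and 7.53 CPM. Its log2 fold change was -0.24 (95% interval -0.69 to 0.21, edgeR adjusted p = 0.441). Ranges overlapped for both genes, neither was called, and a transcript level does not show the activity of the factor. The number called was 0 of 2, also under each alternative, DESeq2 and limma-voom included, and 0 at an unadjusted p under 0.05. Lists of other chaperones, of folding enzymes in the endoplasmic reticulum and of proteasome subunits were also fixed, but neither the count table nor the annotation names a gene by the words used, so they hold 0 genes here.

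The members lay on all 7 linkage groups, and 1 of them, hsp70-1, lay within 200 kb of a chromosome end, at 80.2 kb, where facultative heterochromatin is common in this fungus. Its neighbour on one side, NCU09603, rose from 4.92, 3.13 and 3.29 CPM to 12.8, 14.1 and 12.7 CPM (log2 fold change 1.86, edgeR adjusted p = 9.7e-06), while hsp70-1 itself fell. That neighbour was named after its values were seen. Its neighbour on the other side, NCU09600, had a log2 fold change of -0.25 (edgeR adjusted p = 0.413). Of the 26 genes next to members, 24 were tested, and 4 were called, 2 higher and 2 lower, or 16.7% against 28.1% of all genes tested.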

How the data were processed

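The authors deposited raw counts per gene, with 1 alignment file per column per the file headers, so replicates were not pooled. The submitters' processing notes list Trim Galore 0.6.10, STAR 2.7.11, SAMtools 1.21, Subread 2.0.6 and featureCounts. Genome build and strand setting are not given in the sources used here, and coordinates are those of the deposited table. Per the file headers, length is the bases of the counted intervals, and 98.8% of lengths were multiples of 3, hence coding length. A further 36 columns of the table fit no label and were left aside. Names were matched to the RefSeq table of the NC12 assembly, 11 members by name and 2 by position, the latter to the single annotated gene there that has no row of its own in the count table. No counted interval of a member overlapped another counted gene. Sequences were not used here.

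Counts were tested with edgeR 4.0.16 (R 4.3.3), as double minus single knockout. The filter was filterByExpr, which kept 9148 and removed 609 genes. TMM factors and a robust quasi-likelihood fit without a replicate block were used, with Benjamini-Hochberg adjustment over all genes tested and a threshold of 0.05. Standard errors are the size of the log2 fold change divided by the square root of F, and 95% intervals are not adjusted for multiple tests. CPM uses TMM-scaled totals, and RPKM divides it by length in kb. Replicates differed by more than counting noise (chi-square per degree of freedom 22.4 to 103). Of values from 1 to 20 counts, 80.9% were even, so a count is not taken as 1 fragment. Alternatives were other scalings, filters, DESeq2 1.42.0, limma-voom 3.58.1, fits that were not robust or had a replicate block, thinned or halved counts, and dropping the 20 most abundant genes, or dropping single libraries in turn. The main fit read at an adjusted p of 0.01 was counted among the 19 alternatives. The fit was tested on simulated data, where most changes of the smallest simulated size were missed. That size lay within the range of absolute changes of the called members. A gene that was not called may therefore still have changed. All members were named, with the genes of the lists and markers and the 3 genes of most similar pattern. The members and lists were chosen with earlier results of these data known.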

Additional observations from a re-analysis of the deposited data

How the results depend on the processing

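The number of members called was 7, with 2 higher and 5 lower, and depended on the libraries. Fits that each lacked 1 library gave 3 to 8 called, 0 to 2 higher and 2 to 6 lower, and for all genes 1782 to 2674 called, 1129 to 1535 higher and 650 to 1139 lower. At an adjusted p of 0.01, 2 members were called (hsp60 and grp78), 0 higher and 2 lower, and 1526 of all genes, 983 higher and 543 lower. On library totals, which moved the median of all genes to -0.20, 1 member was higher and 7 lower, and 1861 of all genes were lower, so that higher calls made up 35.8% of calls against 57.5% with TMM. With upper-quartile scaling 1 member was higher and 6 lower. Of 285 values for single members and heat shock factors, 251 kept their sign and whether they were called, 21 lost the call, 9 gained it and 4 turned sign. These include the main fit read at an adjusted p of 0.01, where sign and size could not change. There hsp20 family, hsp70-1, hsp70-2, hsp80 and hsp88 lost the call by the cutoff alone. Some of the 251 still changed in size, among them hsp30 without single-knockout replicate 1 (-0.24 against -1.12), hsp70-5 without single-knockout replicate 2 (-0.087 against -0.40) and hsf-2 without single-knockout replicate 1 (-0.079 against -0.24). The turned values were hsp98 on library totals (-0.044), which follows that shift of the centre, hsp30-like protein without double-knockout replicate 2 (0.12), and hsf-1 without single-knockout replicate 3 (0.10) or with double-knockout replicate 1 left out (0.077). With single libraries left out, hsp30-like protein ran from -0.26 to 0.12 and hsf-1 from -0.27 to 0.10. None of these genes was called, and for the last 3 values the cause was not tested. The replicate block gave 8 members, 2 higher and 6 lower, adding hsp90a (edgeR adjusted p = 0.0148), and 3009 of all genes. The labels do not say that a replicate number marks shared handling, so the numbers were not taken to pair the samples. Same-numbered libraries deviated together with correlations of -0.015, 0.097 and 0.17. With 3 libraries per strain these cannot decide whether handling was shared. Single-knockout replicate 2 correlated best with double-knockout replicate 1 (0.11). The smallest count of any member was 179, for hsp30 in double-knockout replicate 3.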

Other observations

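Other genes that serve protein quality control were looked at by name after the values were seen. The ubiquitin gene ubi, whose product marks proteins for degradation, had 667, 808 and 594 CPM in the single and 1197, 1048 and 1068 CPM in the double knockout. It rose by 0.68 on the log2 scale (SE 0.16; adjusted p = 0.00498 by edgeR), with no overlap between the strains. Every double-knockout library was above every single-knockout library, as for 22.4% of all genes tested, and 16.1% of all genes tested were called higher. Genes of the motor that pulls proteins into mitochondria with the help of Hsp70 were not called. The log2 fold change was -0.090 for tim44 (edgeR adjusted p = 0.737), -0.24 for tim14 (edgeR adjusted p = 0.285) and -0.27 for un-4, which the annotation also calls tim16 (edgeR adjusted p = 0.296). For tim14 and un-4 every double-knockout library was below every single-knockout library. That order was shown by 19.8% of all genes tested, so it does not set these genes apart.

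The genes whose log2 CPM was most like the mean of the 13 members over the 6 libraries were NCU05145 (Pearson's r = 0.993), the DNA methyltransferase gene dim-2 (0.992) and NCU03207 (0.986). These were the highest values among tested genes whose average log2 CPM was at least 2, and they share the libraries, their depth and the strain difference with the members. Of these, NCU05145 fell in the double knockout (log2 fold change -0.57, edgeR adjusted p = 0.0386), while dim-2 (-0.48, edgeR adjusted p = 0.100) and NCU03207 (-0.22, edgeR adjusted p = 0.277) were not called.

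The ratio of hsp60 to hsp70-5 in RPKM was 0.587 to 0.733 in the single and 0.405 to 0.517 in the double knockout. The ratio of hsp78 to hsp70-5 was 0.149 to 0.365 and 0.371 to 0.470, so the strains were apart only by 0.365 against 0.371. The value of 0.149 was single-knockout replicate 2, where hsp70-5 stood at 84.7 RPKM against 48.7 and 49.8 in replicates 1 and 3. These ratios too were chosen with the values in view. The exact two-sided permutation p was 0.1 for each, the smallest possible (adjusted over 5 ratios 0.125). This value only restates that the strains did not overlap.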
